A study of Mus musculus with 27 samples.

Results

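The genes described here were the epidermal growth factor (EGF) receptor ligands Egf, Hbegf, Areg, Ereg, Tgfa and Btc, the receptor gene Egfr, and the pair of Hgf and its receptor gene Met. They were chosen by gene symbol, and all 9 were found among the 19392 genes of the expression table. RNA-Seq was done on the left kidneys of 27 C57BL/6 mice. By the labels' protocol the right kidney was removed, and the left renal pedicle was clamped for 0 (sham), 16, 18, 20, 22, 24, 26, 28 or 30 min on a 37°C platform. Kidneys were taken 24 h later, with 3 mice at each time. The surgical description in the labels covers the 0 min group too, which is labelled sham and control, and does not say separately whether its right kidney was removed. The age of the mice is not given in the sources used here.

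All ligands of the EGF receptor are made as membrane-anchored precursors and are cut from the cell surface by sheddases, after which they bind EGFR, a receptor tyrosine kinase that feeds the RAS and MAP kinase cascade. In the kidney, Egf is made by cells of the thick ascending limb and the distal convoluted tubule, and its protein is shed into the urine. Hepatocyte growth factor, from Hgf, is secreted as an inactive chain by mesenchymal and other stromal cells, is activated by serine proteases, and binds MET on epithelial cells.

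Values are in FPKM (fragments mapped to a gene, divided by its transcript length and by the total mapped in that kidney), so that levels can be set side by side between genes. Fold changes are log2 differences of quantile normalized log2(FPKM + 1) from limma, with adjusted p-values over all 18188 genes tested. A gene was called where its log2 fold change was above 1 in size and its adjusted p was under 0.05, and "rose" and "fell" are used for called genes. All comparisons with 0 min shared the same 3 sham kidneys. Summed FPKM per kidney ran from 512453 to 554036, and 16498 to 16904 genes were above 0. The tissue label was matched by tubule markers in the sham kidneys, with Slc34a1, a proximal tubule phosphate transporter, at 2226 ± 179.3 FPKM (SD, n = 3) and Umod, the uromodulin gene of the thick ascending limb, at 1302 ± 88.9 FPKM. Transcripts were measured in whole kidney, so that fewer cells of a type and less RNA per cell cannot be told apart.

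On the mouse build GRCm38, Egf lies at chr3:129677565-129755316 on the minus strand. The ligand genes Ereg (chr5:91074622-91093646), Areg (chr5:91139599-91148432) and Btc (chr5:91357261-91402994) are neighbours of Epgn, another ligand gene, within 375531 bp of chromosome 5. Tgfa lies at chr6:86195223-86275719, Met at chr6:17463800-17573980, Egfr at chr11:16752203-16918158 and Hgf at chr5:16553495-16620152. Each is annotated as a protein-coding gene, and the position of Hbegf is not reported here. Antisense transcripts are annotated within Egf, Ereg and Egfr. Whether strand was used in counting is not given in the sources used here, and without it their reads and those of the gene cannot be told apart.

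Promoters are shown for Egf and Btc, whose levels were lowest at 28 min, and for Areg, whose level was highest at 30 min. Each is the RefSeq window of 300 bases, 250 before and 50 after the annotated start, on the gene's own strand in GRCm38.p6. The windows are chr3:129755273-129755572 (minus strand) for Egf, chr5:91402945-91403244 (minus strand) for Btc and chr5:91139349-91139648 (plus strand) for Areg. Capitals mark matches to TGACGTCA, the cyclic AMP response element, and to TATAAA, the TATA box. The AP-1 motif TGANTCA was searched too, all on both strands.
Egf promoter: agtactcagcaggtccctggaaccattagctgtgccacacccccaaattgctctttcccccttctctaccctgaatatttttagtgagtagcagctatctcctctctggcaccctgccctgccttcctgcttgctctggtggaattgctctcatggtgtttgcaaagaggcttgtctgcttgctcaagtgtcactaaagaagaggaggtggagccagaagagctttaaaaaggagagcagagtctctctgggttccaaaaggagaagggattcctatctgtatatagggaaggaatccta
Btc promoter: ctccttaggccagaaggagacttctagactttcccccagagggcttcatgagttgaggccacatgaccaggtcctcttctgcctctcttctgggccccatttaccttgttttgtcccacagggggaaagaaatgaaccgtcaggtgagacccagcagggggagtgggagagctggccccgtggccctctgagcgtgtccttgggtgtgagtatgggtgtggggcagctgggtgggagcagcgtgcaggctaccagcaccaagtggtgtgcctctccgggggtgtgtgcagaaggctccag
Areg promoter: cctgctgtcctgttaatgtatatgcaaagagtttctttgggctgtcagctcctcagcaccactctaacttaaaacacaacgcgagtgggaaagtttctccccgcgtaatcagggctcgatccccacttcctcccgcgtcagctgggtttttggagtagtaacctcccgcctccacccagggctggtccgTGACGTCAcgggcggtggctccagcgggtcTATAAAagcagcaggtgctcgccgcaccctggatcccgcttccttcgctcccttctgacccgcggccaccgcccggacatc
The Areg window held TGACGTCA from base -61 and TATAAA from base -31, counted from the start site. Of all 32851 promoter windows, 1.79% held TGACGTCA, 13.6% held TATAAA and 7.81% held TGANTCA. The windows of Egf, Btc, Tgfa, Egfr and Hgf held none of the 3 motifs, and that of Met held TGAGTCA from base -54. A match is a run of letters and was not tested for binding. Windows were found for 7 of the 9 genes, not for Hbegf and Ereg, and Egf and Hgf each had a second annotated start, without a match.

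Egf fell with every clamp time from 18 min on and was at its lowest at 28 and 30 min. The sham kidneys held 301, 375 and 259 FPKM, above each of the other 8 genes. At 28 min the 3 kidneys held 4.94, 5.27 and 4.37 FPKM, and at 30 min 4.29, 6.13 and 14.1 FPKM. The highest of these 6 kidneys was below the lowest of the other 21, which held 33.5 FPKM. The group mean was 312 ± 58.9 FPKM (SD, n = 3) at 0 min, 57.7 ± 26.6 FPKM at 26 min, 4.86 ± 0.455 FPKM at 28 min and 8.17 ± 5.20 FPKM at 30 min. The mean was thus 64.2-fold lower at 28 min and 38.2-fold lower at 30 min than in the sham kidneys. The log2 fold change was -5.78 ± 0.60 (SE) at 28 min, with an adjusted p of 2.24e-07. At 30 min it was -5.27 ± 0.60, with an adjusted p of 4.03e-07.

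Between 16 and 26 min, Egf held an intermediate level with a wide spread among kidneys. At 16 min the kidneys held 90.8, 37.0 and 330 FPKM, so that replicate 3 lay within the sham range while the other kidneys did not. At 18 min they held 60.3, 88.7 and 84.0 FPKM, at 20 min 65.0, 50.2 and 172.5 FPKM, and at 22 min 94.3, 104 and 42.7 FPKM. At 24 min they held 50.6, 96.6 and 75.1 FPKM, and at 26 min 53.3, 86.2 and 33.5 FPKM. All 15 kidneys from 18 to 26 min lay below the 3 sham kidneys and above the 6 kidneys at 28 and 30 min. The log2 fold change against 0 min ran from -1.95 (adjusted p = 0.0249) at 20 min to -2.56 (adjusted p = 0.00319) at 26 min over the called times. The calls at 18, 20 and 22 min were each lost in limma without certain single kidneys (adjusted p from 0.0538 to 0.117). At 16 min it was -1.58 with an adjusted p of 0.0721, and without replicate 3 of that group it was -2.44 with an adjusted p of 0.00218.

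Egf also fell from 26 to 28 min, with a log2 fold change of -3.23 (SE 0.60, adjusted p = 0.00103). From 28 to 30 min the difference was 0.51 with a 95% interval of -0.75 to 1.77 (adjusted p = 0.672). No trend was found from 16 to 26 min, where the slope was -0.08 log2 units per min (adjusted p = 0.746). In the order of the group means, Egf ran from 0 min through 16, 20, 22, 18, 24 and 26 min to 30 and 28 min. The only neighbours in this order whose kidneys did not overlap were 26 and 30 min.

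**Figure D1:**
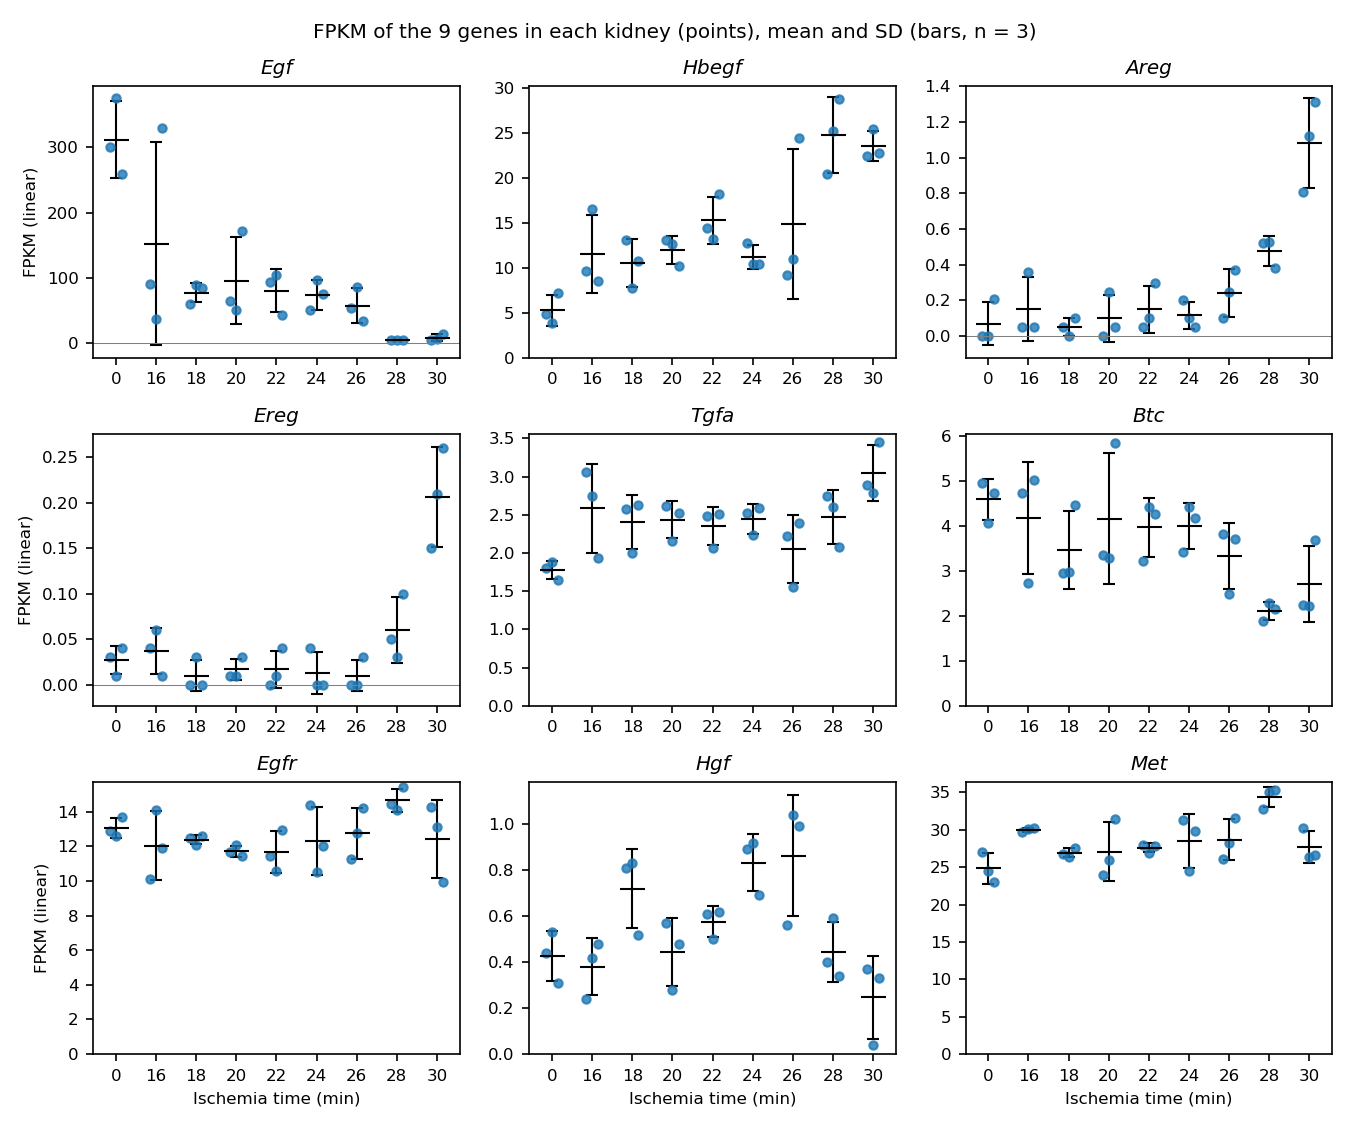
FPKM of the 9 genes (y axis, linear) by ischemia time in min (x axis), with a point per kidney and bars for the mean and SD of 3 kidneys. Egf sits between 4.29 and 14.1 FPKM in the 6 kidneys at 28 and 30 min, while Hbegf is at 20.4 FPKM or more in the same kidneys.

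Hbegf, the heparin-binding ligand, rose while Egf fell. The sham kidneys held 4.86, 3.80 and 7.17 FPKM. At 28 min the kidneys held 20.4, 25.2 and 28.7 FPKM, and at 30 min 22.5, 25.5 and 22.8 FPKM. Every kidney at these times was above every sham kidney. The group mean of Hbegf was 5.28 ± 1.72 FPKM at 0 min, 24.8 ± 4.18 FPKM at 28 min and 23.6 ± 1.65 FPKM at 30 min (SD, n = 3), 4.69-fold and 4.47-fold higher than the sham mean. For Hbegf, the log2 fold change was 1.90 ± 0.27 (SE) at 28 min (adjusted p = 9.47e-06) and 1.89 ± 0.27 at 30 min (adjusted p = 6.86e-06).

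From 16 to 26 min the 18 kidneys held between 7.71 and 24.5 FPKM of Hbegf, with a median of 11.8 FPKM, and none was as low as the highest sham kidney. Hbegf was called at 22 min (log2 fold change 1.29, adjusted p = 0.00152) and at 26 min (1.12, adjusted p = 0.00389). At 16, 18, 20 and 24 min the log2 fold change of Hbegf was 0.87, 0.77, 0.98 and 0.87, with adjusted p between 0.0134 and 0.0393, below the fold threshold. At 16 min it was 1.03 (adjusted p = 0.015) without replicate 3, the kidney with the Egf level of a sham kidney. The call at 26 min rested on replicate 3, which held 24.5 FPKM against 9.24 and 10.99 FPKM in the other kidneys. Without it the log2 fold change at 26 min was 0.72 (adjusted p = 0.0313). The step of Hbegf from 26 to 28 min was 0.78 (adjusted p = 0.0503), and 1.18 (adjusted p = 0.00198) without the same kidney. From 28 to 30 min the difference was -0.01, with a 95% interval of -0.57 to 0.56.

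Areg and Ereg, the amphiregulin and epiregulin genes, were near the lowest values of the table in most kidneys and highest at 30 min. Areg was at 0, 0 and 0.21 FPKM in the sham kidneys and at no more than 0.37 FPKM in the 18 kidneys from 16 to 26 min. It was at 0.52, 0.53 and 0.38 FPKM at 28 min and at 0.81, 1.12 and 1.31 FPKM at 30 min, so that these groups overlapped neither each other nor any other group. The log2 fold change of Areg was 0.48 ± 0.12 (SE) at 28 min (adjusted p = 0.00231) and 0.96 ± 0.12 at 30 min (adjusted p = 1.22e-06), and the step from 28 to 30 min was 0.48 (adjusted p = 0.0129). Ereg was at 0.15, 0.21 and 0.26 FPKM at 30 min and at no more than 0.10 FPKM in the other 24 kidneys. Its log2 fold change at 30 min was 0.22 ± 0.03 (adjusted p = 1.97e-05), with 0.17 from 28 to 30 min (adjusted p = 0.00286).

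Neither Areg nor Ereg was called in the fit reported. Areg at 30 min was near the threshold, and was called without sham replicate 3 (1.062) or without 30 min replicate 1 (1.065). A pseudocount of 1 FPKM shrinks the fold change of genes at this level. With 0.1 FPKM in its place, the log2 fold change of Areg was 1.98 at 28 min (adjusted p = 0.00389) and 2.96 at 30 min (adjusted p = 8.04e-05), and that of Ereg was 1.16 at 30 min (adjusted p = 2.66e-05). Areg was listed at 0 in 4 kidneys and Ereg in 7, which does not show that the transcripts were absent.

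Btc, the betacellulin gene, was lower at 28 and 30 min and missed the fold threshold. The sham kidneys held 4.96, 4.07 and 4.74 FPKM of Btc, against 1.89, 2.29 and 2.16 FPKM at 28 min and 2.24, 2.21 and 3.69 FPKM at 30 min. No kidney at either time reached the lowest sham kidney. In limma, Btc had a log2 fold change of -0.94 ± 0.21 (SE) at 28 min (adjusted p = 0.000832) and -0.72 ± 0.21 at 30 min (adjusted p = 0.00639). From 16 to 26 min Btc ran from 2.49 to 5.84 FPKM and overlapped the sham kidneys except at 26 min, with adjusted p of 0.0653 or more.

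Tgfa, the gene of transforming growth factor alpha, was at 1.80, 1.88 and 1.65 FPKM in the sham kidneys and at 2.89, 2.78 and 3.46 FPKM at 30 min. Its log2 fold change at 30 min was 0.42 ± 0.11 (SE) with an adjusted p of 0.00375, and at 28 min 0.20 with an adjusted p of 0.148. The Tgfa values at 16, 18, 20, 22, 24 and 28 min were also all above the sham kidneys, and those at 26 min overlapped them. From 16 to 26 min the adjusted p of Tgfa in limma was 0.208 or more. The 4 ligand genes of the chromosome 5 cluster thus had log2 fold changes at 30 min of 0.96 for Areg, 0.22 for Ereg and -0.72 for Btc, while that of Epgn, at 0.0600 FPKM, was 0.00 (adjusted p = 0.994).

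**Figure D2:**
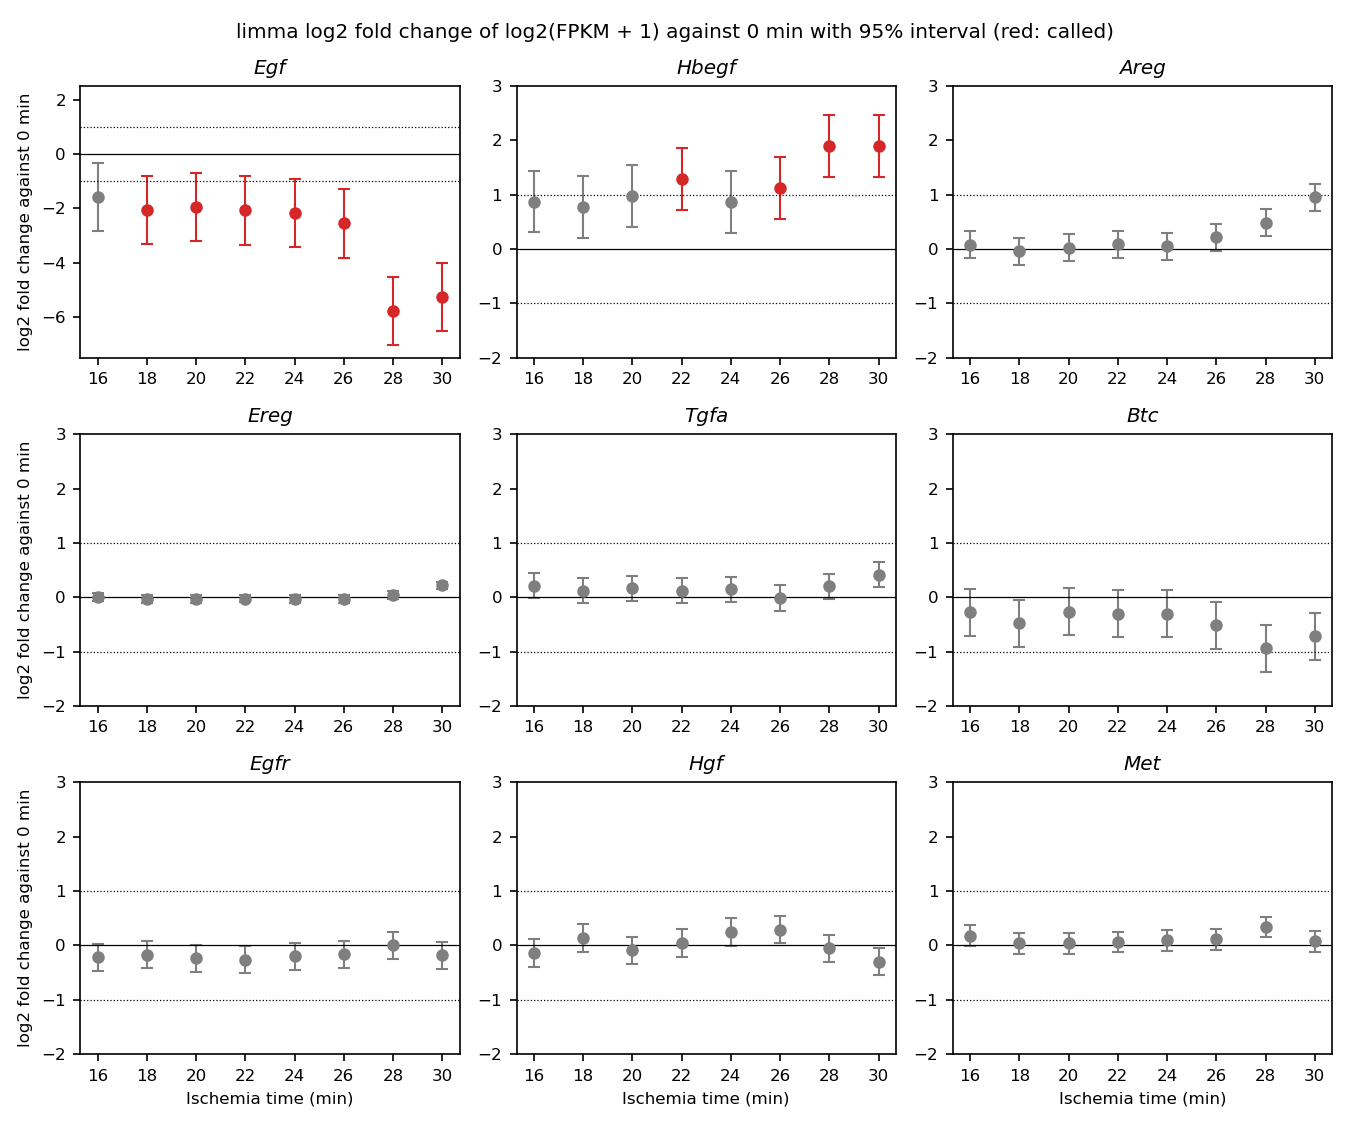
log2 fold change of each gene against 0 min (y axis) by ischemia time in min (x axis), with 95% intervals from limma. Red points were called, the dotted lines mark 1 and -1, and the y axis of Egf differs from that of the other genes. Egf is called lower at 7 of the 8 times, and Hbegf is called higher at 22, 26, 28 and 30 min.

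In the sum of the 6 ligands, Egf was replaced by Hbegf as the most abundant transcript at 28 and 30 min. The summed ligand level was 323.5 ± 56.9 FPKM (SD, n = 3) at 0 min, 78.2 ± 20.2 FPKM at 26 min, 34.8 ± 3.77 FPKM at 28 min and 38.8 ± 6.41 FPKM at 30 min. Egf made up 96.2% ± 1.26 of it in the sham kidneys and 71.5% ± 17.3 at 26 min. Its share was 14.1% ± 2.36 at 28 min and 20.0% ± 9.53 at 30 min. Hbegf made up 1.72% ± 0.834 at 0 min, 71.0% ± 4.65 at 28 min and 61.8% ± 10.3 at 30 min. The ratio of Hbegf to Egf was between 0.0101 and 0.0277 in the sham kidneys and between 1.62 and 6.57 in the 6 kidneys at 28 and 30 min. It was below 1 in each of the 18 kidneys between, with 0.73 in replicate 3 at 26 min as the highest.

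The sum of the 5 ligands other than Egf was 11.7 ± 2.03 FPKM at 0 min, 29.9 ± 3.97 FPKM at 28 min and 30.6 ± 1.79 FPKM at 30 min, and both later groups lay above the sham kidneys without overlap. Their sum with Egf was lower at each time from 18 min on, also without overlap. The exact permutation test, two-sided, gave p = 0.1 for these differences, the smallest that 3 against 3 kidneys allow, and 0.1125 after adjustment over the 9 comparisons of the 6-ligand sum (0.129 for the 5 ligands). At 16 min the sum of the 6 ligands overlapped the sham kidneys (exact permutation test, p = 0.3).

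**Figure D3:**
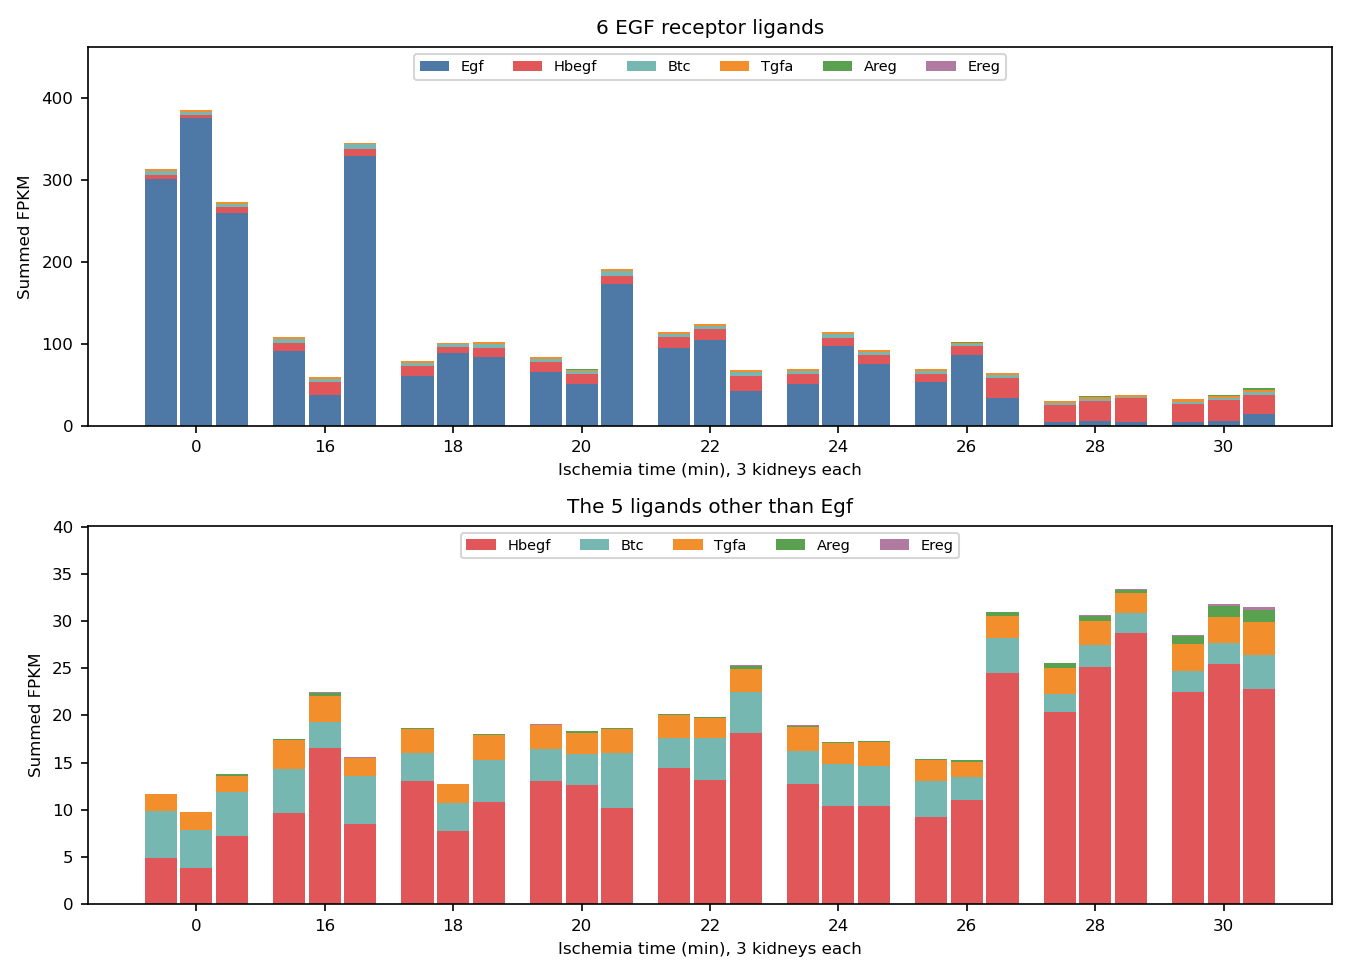
Summed FPKM of the 6 EGF receptor ligands (top) and of the 5 ligands other than Egf (bottom) by ischemia time in min, with 1 stacked bar per kidney and a linear axis from 0. The top bars run from 273 to 385 FPKM at 0 min and from 30.5 to 45.6 FPKM at 28 and 30 min, while the bottom bars run from 9.76 to 13.8 FPKM and from 25.6 to 33.5 FPKM.

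Egfr, the shared receptor gene of these ligands, was not called at any time. The sham kidneys held 12.9, 12.6 and 13.7 FPKM, and all 27 kidneys lay between 9.93 and 15.4 FPKM. At 28 min the 3 kidneys held 14.5, 14.1 and 15.4 FPKM, all above the sham kidneys, and the log2 fold change of Egfr was 0.01, with a 95% interval of -0.24 to 0.25. Without quantile normalization it was 0.16 (adjusted p = 0.314 in limma). At 30 min it was -0.18, with an interval of -0.43 to 0.06. Its largest difference from 0 min in size was -0.26 at 22 min (adjusted p = 0.109).

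Hgf was a low transcript, at 0.44, 0.53 and 0.31 FPKM in the sham kidneys. Its group mean was highest at 26 min, with kidneys at 0.56, 1.04 and 0.99 FPKM, and lowest at 30 min, with 0.37, 0.04 and 0.33 FPKM. The 24 min kidneys, at 0.89, 0.92 and 0.69 FPKM, overlapped those at 26 min, and both groups lay above the sham kidneys. The log2 fold change of Hgf was 0.29 ± 0.12 (SE) at 26 min (adjusted p = 0.0783) and -0.30 ± 0.12 at 30 min (adjusted p = 0.0456), with overlap between the 30 min and the sham kidneys. The difference of 28 from 26 min was -0.34 (adjusted p = 0.0528). With a pseudocount of 0.1 FPKM, the log2 fold change of Hgf at 30 min was -1.005 (adjusted p = 0.0222), which was past the fold threshold. With 1 FPKM and each kidney left out in turn, that of Hgf at 30 min ran from -0.38 to -0.18. The adjusted p in limma then ran from 0.0245 to 0.251, so that the lower level at 30 min depended on single kidneys.

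Met was at 27.1, 24.4 and 23.0 FPKM in the sham kidneys and at 32.85, 35 and 35.26 FPKM at 28 min, where all 3 kidneys were above every other kidney of the series. Its log2 fold change at 28 min was 0.34 ± 0.09 (SE, adjusted p = 0.00452), well under the fold threshold. At 30 min Met was at 30.2, 26.4 and 26.6 FPKM, with a log2 fold change of 0.08 and a 95% interval of -0.12 to 0.27. Met had the smallest spread of the 9 genes within a time. Its SD pooled over the times was 8.04% of its mean over all kidneys, against 64.8% for Egf.

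The count of called genes was read against all genes tested. Of the 9 genes, 0 were called at 16 min, where 1.28% of all genes were called higher and 0.979% lower, and 5796 genes had an unadjusted p under 0.05. Egf alone was called at 18, 20 and 24 min, where 1.97%, 1.55% and 1.97% of all genes were called higher and 1.09%, 0.962% and 1.15% lower. Egf and Hbegf were called at 22, 26, 28 and 30 min. The shares of all genes called higher at these times were 2.09%, 2.16%, 4.27% and 5.14%, and the shares called lower were 1.2%, 1.61%, 4.21% and 5.59%. Between 26 and 28 min, Egf was called lower with 1.06% of all genes, while 0.44% were called higher. Between 28 and 30 min 0 of the 9 were called, with 0.401% of all genes called higher and 0.649% lower.

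With an adjusted p under 0.05 at any fold, 1 of the 9 genes passed at 16 min, against 19% of all genes. At each time from 18 to 26 min 2 passed, against, in order of time, 27.8%, 22.8%, 28.8%, 28.3% and 30.1% of all genes. With the 28 min kidneys 5 passed, against 48.2%, and with the 30 min kidneys 7 passed, against 52.3%. Between 26 and 28 min 1 passed against 19.3%, and between 28 and 30 min 2 passed against 13.2%. The share among the 9 genes was thus near that of all genes from 16 to 28 min. In limma, 0 of the 9 genes and 0% of all genes were called in each of the 5 comparisons of neighbouring times from 16 to 26 min, where between 447 and 1100 genes had an unadjusted p under 0.05. The slope over these times passed for 0 of the 9 genes and for 0.011% of all genes, and 1514 genes had an unadjusted p under 0.05. The median log2 fold change of the 9 genes was 0.04 at 28 min and 0.08 at 30 min, against 0.00 over all genes at both.

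Egf was set beside marker genes of the segments that make it. Of 6 thick ascending limb markers, 5 fell at 28 min and at 30 min, with a median log2 fold change of -1.63 and -1.82. Of 4 distal convoluted tubule markers, 3 fell at 28 min and 2 at 30 min, with medians of -1.61 and -1.28. Of all genes tested, 4.21% fell at 28 min and 5.59% at 30 min. The summed level of the thick ascending limb markers was 1920 to 2082 FPKM in the sham kidneys, 964 to 1598 FPKM at 26 min, 624 to 908 FPKM at 28 min and 567 to 2331 FPKM at 30 min. That of the distal convoluted tubule markers was 348 to 433, 198 to 516, 125 to 192 and 134 to 227 FPKM at the same times, and no marker of either list was at 0 in all kidneys of a group. Replicate 3 at 30 min stood apart, with 2331 FPKM of thick ascending limb markers against 596 and 567 FPKM in the other kidneys, and it also held the highest Egf and Btc of its group. The same kidney held 572 FPKM of collecting duct markers against 224 and 230 FPKM, and 277.5 FPKM of fibroblast and mesenchymal markers against 129 and 84.1 FPKM. Its proximal tubule markers were the lowest of the group, at 944 FPKM against 1093 and 1096 FPKM. Without this kidney the log2 fold change at 30 min was -5.71 for Egf and -0.86 for Btc. The part of the thick ascending limb and the distal convoluted tubule in the change of Egf was not tested.

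The log2 fold changes of single segment markers at 28 min were smaller in size than that of Egf. Umod was at 575 FPKM (log2 fold change -1.43, adjusted p = 0.00347), and Slc12a3, the thiazide-sensitive cotransporter, at 120 FPKM with a log2 fold change of -0.79. Slc12a1, the loop diuretic-sensitive cotransporter, had -3.49, and Pvalb, the parvalbumin gene of the distal convoluted tubule, had -4.28. The mean log2(FPKM + 1) of Egf was 1.34 above that of the thick ascending limb list in the sham kidneys, and this excess had changed by -3.99 at 28 min and by -3.73 at 30 min. Against the distal convoluted tubule list the changes were -3.68 at 28 min and -3.37 at 30 min. The groups did not overlap, and the exact permutation test, two-sided, gave p = 0.1, the smallest possible with 3 against 3 kidneys (0.1125 after adjustment over 9 comparisons).

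**Figure D4:**
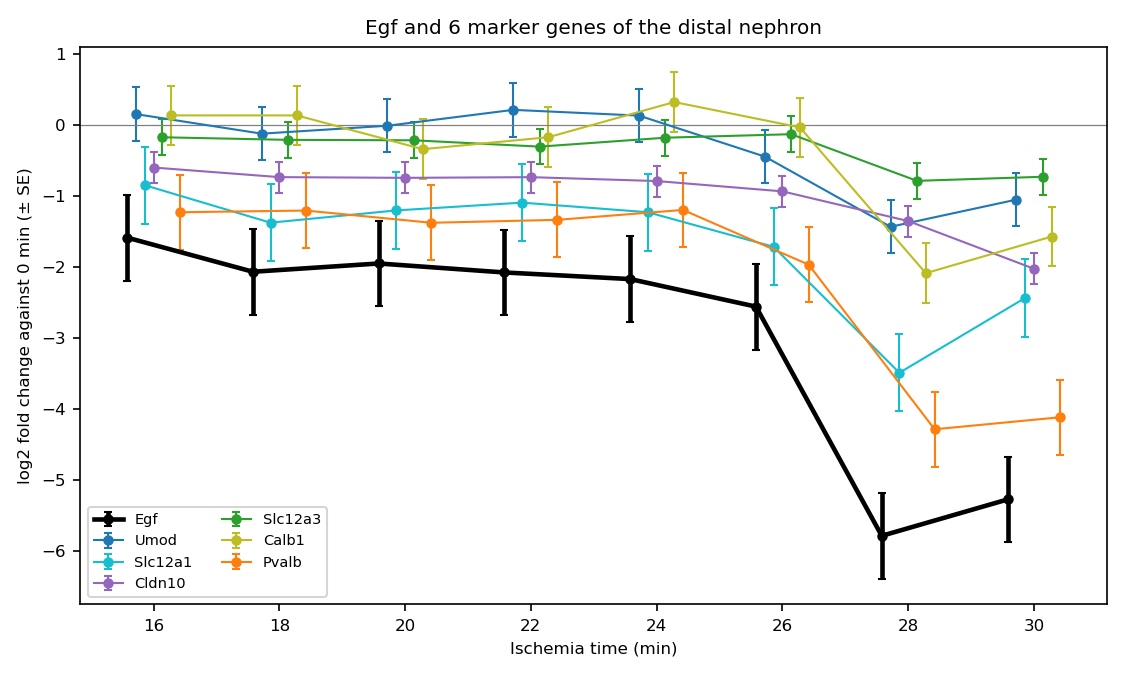
log2 fold change against 0 min with its SE (y axis) by ischemia time in min (x axis) for Egf and the 3 thick ascending limb markers (Umod, Slc12a1, Cldn10) and 3 distal convoluted tubule markers (Slc12a3, Calb1, Pvalb) with the highest sham level. Egf is the lowest line at every time, at -5.78 at 28 min, where Pvalb is at -4.28 and Slc12a3 at -0.79.

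The gene whose profile over the 9 times was most like that of Egf was Akr1c14, a hydroxysteroid dehydrogenase gene, with a root-mean-square difference of 0.25 log2 units among 12345 genes. Mettl7a2 (0.39) and Pvalb (0.42) followed. For Hbegf the nearest were Ier2 (0.11), an immediate early gene, Sbsn (0.12) and Tlcd3a (0.13). These are 9 group means each, and the likeness was not tested.

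Among the 18 kidneys from 16 to 26 min, Egf varied widely at a given clamp time. Its relation to the other genes and to marker lists was computed on log2(FPKM + 1), after the data had been seen. The values of Egf and the other genes were quantile normalized, and those of the marker lists were not. Of 12 relations, the strongest was that with the mean of 5 injured tubule markers (Havcr1, Lcn2, Krt20, Vcam1, Sox9). Pearson's r was -0.93 and Spearman's rho was -0.87 (permutation test, p = 1e-05 for both, the smallest that 100000 permutations can give, adjusted p = 0.00012). Within ischemia times r was -0.93. Without the 2 kidneys farthest from the median of Egf (replicate 3 at 16 min and replicate 3 at 26 min) it was -0.86. The permutations moved kidneys freely across clamp times, so that the p-values do not cover the r within times, which was not tested. Replicate 3 at 16 min, with the Egf level of a sham kidney, held 70.7 FPKM of injured tubule markers, against 729 and 1023 FPKM in its group and 15.8 to 90.1 FPKM in the sham kidneys.

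Egf also went with the mean of the 4 distal convoluted tubule markers, with r = 0.74 (permutation test, adjusted p = 0.00426) and rho = 0.82 (adjusted p = 0.0003), 0.78 within times and 0.66 without the same 2 kidneys. For the 6 thick ascending limb markers r was 0.68 (permutation test, adjusted p = 0.00596) and rho was 0.71 (adjusted p = 0.00604), with 0.66 within times and 0.64 without the 2 kidneys. For the 6 proximal tubule markers r was 0.54 (permutation test, adjusted p = 0.0488) and rho was 0.60 (adjusted p = 0.0234), with 0.61 within times. Without the 2 kidneys r was 0.22, so that the proximal tubule relation rested on them.

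In the same 18 kidneys, Hbegf was higher where Egf was lower, with r = -0.64 (permutation test, adjusted p = 0.0166) and rho = -0.50 (adjusted p = 0.0629). The r was -0.70 within ischemia times and -0.50 without the same 2 kidneys. For Areg r was -0.61 (permutation test, adjusted p = 0.0166) and rho was -0.56 (adjusted p = 0.038), with -0.64 within times and -0.60 without the 2 kidneys. Areg held only 0 to 0.37 FPKM in these 18 kidneys, near the lowest values of the table. Btc went with Egf, with r = 0.57 (permutation test, adjusted p = 0.025) and rho = 0.49 (adjusted p = 0.0652), 0.55 within times and 0.54 without the 2 kidneys. Egfr had r = -0.41 (permutation test, adjusted p = 0.129) and rho = -0.61 (adjusted p = 0.0234), with -0.40 within times and -0.56 without the 2 kidneys. For Ereg, Tgfa, Hgf and Met the adjusted permutation p was 0.276 or more by either measure.

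**Figure D5:**
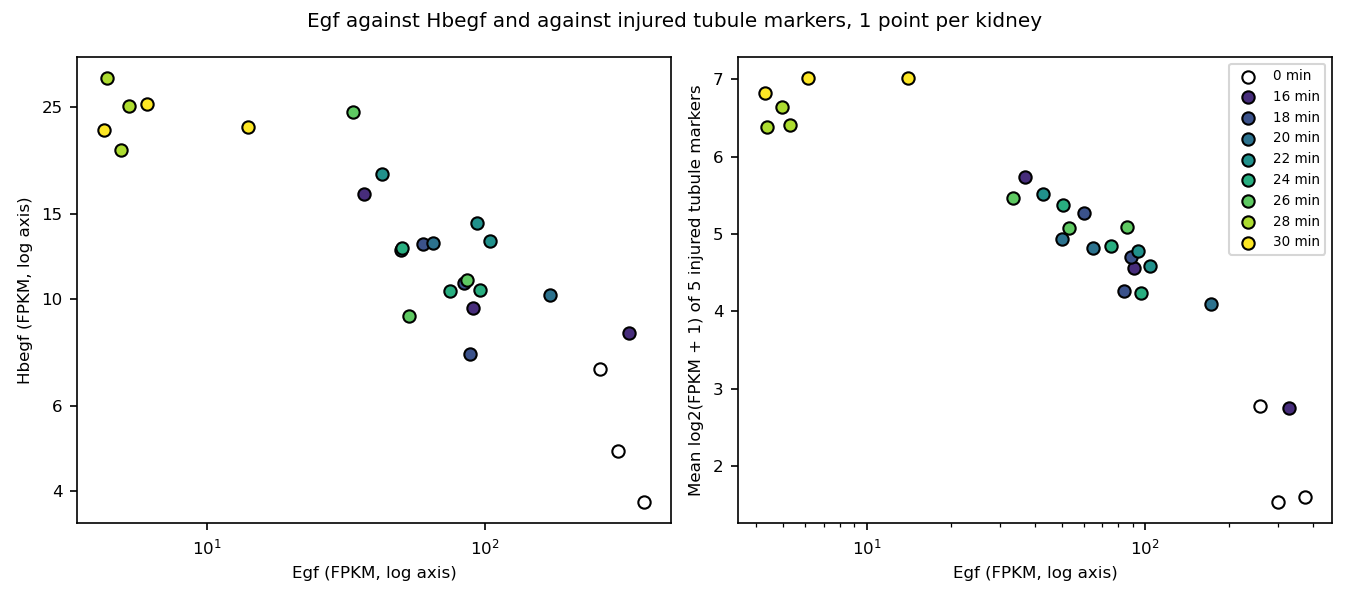
Egf in FPKM (x axis, log) against Hbegf in FPKM (left, y axis, log) and against the mean log2(FPKM + 1) of 5 injured tubule markers (right), with 1 point per kidney coloured by ischemia time. The 28 and 30 min kidneys form a separate group at the low end of Egf. At the high end, replicate 3 at 16 min, with 330 FPKM of Egf, lies within the Egf range of the 0 min kidneys. The r of -0.64 and -0.93 are over the 18 kidneys of the other times, with this replicate included.

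Other genes of the pathway were taken from lists fixed with earlier results of these data known. Beside the list counts here and below, 4.27% of all genes tested rose at 28 min and 5.14% at 30 min. The shares that fell were 4.21% and 5.59%. Of 8 EGF family genes outside the 9, Nrg1, a neuregulin that binds the ERBB3 and ERBB4 receptors, rose at 28 min, with a mean of 5.19 FPKM at 0 min and 13.7 FPKM at 28 min and a log2 fold change of 1.10 (adjusted p = 0.00107). At 30 min its log2 fold change was 1.002 (adjusted p = 0.00204), just past the fold threshold. The other 7 were not called. The receptor genes had log2 fold changes at 28 min of -0.28 for Erbb2 (adjusted p = 0.0281), -0.90 for Erbb3 (adjusted p = 3.86e-05) and -0.22 for Erbb4 (adjusted p = 0.362). The median over the 8 was -0.05 at 28 min and -0.10 at 30 min. Of 5 sheddase genes and their regulators, 0 were called at 28 min, and at 30 min Rhbdf1 (1.05, adjusted p = 8.38e-10) and Rhbdf2 (1.23, adjusted p = 4.32e-06), which encode the iRhom partners of the ADAM17 sheddase, rose. The list median was 0.37 at 28 min and 0.45 at 30 min.

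Downstream, 8 of 11 MAP kinase response genes rose at 28 min and 9 at 30 min, against 4.27% and 5.14% of all genes. None of the 11 fell. Their median log2 fold change was 2.37 and 2.39. At 16 min 4 of the 11 had risen (Egr1, Plaur, Etv4 and Junb), against 1.28% of all genes, with a median of 0.98. Fosl1, an AP-1 subunit gene, went from 0.0433 FPKM at 0 min to 1.17 FPKM at 26 min, 11.99 FPKM at 28 min and 19.3 FPKM at 30 min, with a log2 fold change of 4.24 at 30 min (adjusted p = 1.28e-08). Egr1, an immediate early gene, had a log2 fold change of 3.57 at 30 min (adjusted p = 7.52e-07), and Plaur, the urokinase receptor gene, had 3.45 (adjusted p = 1.09e-06). The smallest calls at 30 min were Ier3 at 1.39, Phlda1 at 1.57 and Etv4 at 2.05. Of these genes, 3 also rose from 26 to 28 min, namely Fosl1 by 2.58, Plaur by 1.49 and Myc by 1.33. Many pathways act on these genes, and their relation to the EGF receptor was not tested.

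Of 14 negative regulators of receptor tyrosine kinases, 4 rose at 28 min and 3 at 30 min, with medians of 0.55 at both. These were the MAP kinase phosphatase genes Dusp4 and Dusp5 and the Sprouty-related Spred3 at both times, and the ERK phosphatase gene Dusp6 at 28 min. Dusp5 went from 0.683 FPKM at 0 min to 9.60 FPKM at 28 min and 11.4 FPKM at 30 min (log2 fold change 2.76, adjusted p = 3.53e-09), and Spred3 had 2.06 at 30 min. Of 17 adaptor and RAS pathway genes, 0 were called at 28 min and 1 at 30 min, Nras (1.203, adjusted p = 1.70e-07), with list medians of 0.14 and 0.26.

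On the HGF side, 1 of 9 genes of HGF activation and its inhibition rose at 28 min and 2 at 30 min, with medians of -0.02 and 0.02. These were Plat, the tissue plasminogen activator gene (1.12 at 28 min and 1.55 at 30 min, adjusted p = 0.000536 at 30 min), and St14, the matriptase gene (1.18 at 30 min, adjusted p = 5.17e-06). Of 6 genes of MET partners and the related MST1 system, 2 rose at 28 and 30 min, with medians of 0.29 and 0.47. Cd44, a hyaluronan receptor gene whose variants bind MET, was at 0.403 FPKM at 0 min and 5.34 FPKM at 30 min (log2 fold change 2.08, adjusted p = 8.27e-06), and had risen at 16 min (1.199). Itgb4, the integrin beta 4 gene, had 1.65 at 30 min.

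Markers of other cells were read at the same times, and some lists held called genes while others did not. Of 5 injured tubule markers, 5 rose at 28 min and 4 at 30 min, and their sum was 15.8 to 90.1 FPKM at 0 min, 2144 to 2264 FPKM at 28 min and 2518 to 4918 FPKM at 30 min. Of 6 proximal tubule markers, 4 fell at 28 min and 5 at 30 min, with sums of 3992 to 4484, 1560 to 1730 and 944 to 1096 FPKM. Of 5 macrophage markers, Cd68 rose and Csf1r fell at 28 min, Cd68 and Itgam rose and Csf1r fell at 30 min, and the sum was 18.6 to 23.8, 30.2 to 35.7 and 35.6 to 45.5 FPKM. Of 5 neutrophil markers, 0 were called at 28 min and 2 rose at 30 min (S100a8 and S100a9), with sums of 5.26 to 11.5, 15.2 to 19.2 and 22.4 to 30.3 FPKM.

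Of 6 fibroblast and mesenchymal markers, 3 rose and 1 fell at both times, with sums of 43.5 to 50.3, 101 to 147 and 84.1 to 277.5 FPKM. Of 5 endothelial markers 0 were called at either time, with sums of 62.6 to 75.2, 63.2 to 76.4 and 83.8 to 129.5 FPKM. The endothelial sum at 30 min thus lay above the sham kidneys without overlap. Of 4 collecting duct markers, 2 fell at 28 min and 1 at 30 min, with sums of 272 to 424, 181 to 231 and 224 to 572 FPKM. The T and B cell markers summed to 2.33 FPKM or less, with 0 called. The part of these cells in the levels of Hbegf, Areg, Ereg and Hgf was not tested.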

How the data were processed

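RNA-Seq of the left kidneys of 27 mice, 3 at each of 9 ischemia times, was used as the authors deposited it, as FPKM per gene symbol and kidney with 2 decimals. The study's text calls the unit RPKM. The submitters' processing notes name Bowtie2, RSEM, DESeq2 and the build GRCm38.p6 without their roles, and the annotation is not given in the sources used here. The deposited FPKM values are linear and were not quantile normalized. No read counts were used here. The depth is therefore unknown, and precision rests on the 3 mice per time.

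Samples were grouped by the clamp time in their labels. FPKM were taken as log2(FPKM + 1), quantile normalized over the 27 kidneys and fitted in limma 3.58.1 (R 4.3.3) with 1 mean per time. The 18188 genes with FPKM above 0 in 3 or more kidneys were tested, which held all 9 genes, with Benjamini-Hochberg adjustment. Sums and differences of 3 against 3 kidneys were compared by exact permutation tests in scipy 1.17.1. The fit was tested on simulated data. Gene positions came from GENCODE M21.

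The genes and lists were chosen with earlier results of these data known. Named beside the 9 genes were, of each pathway list, genes called at 28 or 30 min (up to the 3 largest and the 3 smallest changes at 30 min), the most abundant marker genes of sham kidneys, and the 3 genes nearest in profile to Egf and Hbegf. Epgn, Erbb2, Erbb3, Erbb4, Slc12a1, Junb and Myc were named after their values were seen. The alternatives were 0.1 FPKM as pseudocount, leaving out quantile normalization, rescaling to TPM, other filters on low values, a trend in eBayes, a replicate block, only the groups compared, and leaving out each kidney in turn.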

Additional observations from a re-analysis of the deposited data

Results flagged for a closer look

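Egf differed between the 28 min and the 26 min effect of ischemia. Its change against 0 min was larger at 28 min, and the difference, tested in limma as 28 against 26 min, was -3.23 on the log2 scale with an adjusted p of 0.00103. All 3 kidneys at 28 min, with 4.37 to 5.27 FPKM, lay below all 3 at 26 min, with 33.5 to 86.2 FPKM. Leaving out each of these 6 kidneys in turn gave differences of Egf from -3.57 to -2.88, with adjusted p of 0.0098 or less.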

How the results depend on the processing

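With all 27 kidneys kept, Egf at 18, 22, 24, 26, 28 and 30 min and Hbegf at 22, 28 and 30 min were called under each alternative, and no called fold change of the 9 genes changed sign. Of 759 values under these alternatives, 7 had another sign than in the fit reported, none of them called (Tgfa at 26 min, Hgf at 20 and 28 min and the slope of Met, without quantile normalization or with TPM, up to 0.17 in size), and of 702 values with 1 kidney left out 31 had, up to 0.11 in size. With a pseudocount of 0.1 FPKM, 2 genes were called at 20 min, 4 at 28 min (with Areg at 1.985 and Btc at -1.194) and 5 at 30 min (with Areg at 2.964, Ereg at 1.16 and Hgf at -1.005). Without quantile normalization 2 were called at 20 min. With TPM 1 was called at 16 min and 2 each at 20 and 24 min, by Hbegf, and Areg at 30 min had 1.421. With only the groups compared, 0 were called at 20 min (Egf adjusted p = 0.0554) and 1 at 26 min (Hbegf adjusted p = 0.105).

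Leaving out each kidney in turn gave 0 to 2 calls at 16 min, 0 to 1 at 18 min, 0 to 2 at 20 min, 1 to 2 at 22, 24 and 26 min, 2 to 3 at 28 and 30 min, 1 to 2 for 28 against 26 min, and 0 to 0 for 30 against 28 min, neighbouring times and the slope. The Egf call was lost at 18 min without sham replicate 2 or 18 min replicate 1, at 20 min without sham replicate 1 or 2 or 20 min replicate 1 or 2, and at 22 min without sham replicate 2 or 22 min replicate 3 (adjusted p from 0.0538 to 0.117). Hbegf lost its call at 26 min without sham replicate 2 (0.96) or 26 min replicate 3 (0.72). Calls were gained by Hbegf at 16 and 24 min, and by Areg at 30 min (1.06), without sham replicate 3, by Hbegf at 16 min without 16 min replicate 3 (1.03), by Hbegf for 28 against 26 min without 26 min replicate 3 (1.18), by Hbegf at 20 min without sham replicate 3 or 20 min replicate 3, by Btc at 28 min without sham replicate 2 (-1.001), and by Areg at 30 min without replicate 1 (1.06).

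The ligand sum without Egf was reversed in direction, with differences from 0 min of 6.76, 4.703, 6.953, 10.01, 6.057, 8.8, 18.15 and 18.87 FPKM in order of time and 9.353 FPKM for 28 against 26 min. The fit with the replicate block called 2 genes at 28 and 30 min and changed no count. Of pairs of kidneys with the same replicate number, 25 of 108 had correlated deviations (r above 0.1), with a median r of -0.01. Of pairs with different numbers 53 of 216 had, also with a median r of -0.01. This check showed no pairing by number, and it cannot exclude one. The causes of these changes were not tested. With 3 kidneys a group and unknown depth, values of Areg, Ereg and Hgf under 1 FPKM are the least certain.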
